A study of Mus musculus with 7 samples.

Results

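The 4 genes described here, Runx1, Runx2, Runx3 and Cbfb, encode the mouse RUNX transcription factors and their shared partner. A region was assigned to a gene when its midpoint lay in the gene body or within 50 kb of it. This gave 10 of 4934 Runx3-bound regions and 117 of 76705 H3K4me1-marked regions, 127 of 81639 in all. The regions came from chromatin immunoprecipitation and sequencing (ChIP-seq) of resting CD8-positive T cells (CD8-TC) from the spleen of wild-type ICR mice, with cells of 18 mice collected and purified on anti-CD8 beads. The Runx3 group, made with a rabbit antiserum against Runx3, held 3 libraries of 2 repeats. The H3K4me1 group, precipitated with a monoclonal antibody to monomethylated lysine 4 of histone H3, held 2 libraries, as did the control group made with non-immune serum (NIS). Each antibody has 1 list of regions, called on joined repeats against the same NIS libraries, so no value has a replicate error and the number of reads in any given region is unknown here.

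RUNX proteins bind DNA through their Runt domain, and Cbfb, the non-DNA-binding partner, strengthens this contact. Runx1 is needed for blood stem cells and for early T cell development, Runx2 for bone formation, and Runx3 for the CD8 lineage, in which it silences Cd4. Each Runx gene is transcribed from a distal promoter P1 and a proximal promoter P2, whose transcripts encode proteins with different N-termini, and H3K4me1 is a histone mark found at enhancers and on the flanks of active promoters. P1 was taken here as the start of the protein-coding transcripts whose protein begins with the residues MAS, and P2 as the start of those beginning with MRIPV. Positions are on mm9, 1-based.

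Runx1 lay on chromosome 16 (minus strand, 92601712 to 92826311), Runx2 on chromosome 17 (minus strand, 44632936 to 44951746), Runx3 on chromosome 4 (plus strand, 134676567 to 134733905) and Cbfb on chromosome 8 (plus strand, 107694574 to 107741886). The P1 starts were at 92826311 for Runx1, 44951530 for Runx2 and 134676567 for Runx3, and the P2 starts at 92697573, 44873597 and 134708411 in the same order. P1 and P2 were thus 128738 bp apart in Runx1, 77933 bp in Runx2 and 31844 bp in Runx3. Cbfb had a single promoter, at 107694574.

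The sequence that recurs at these loci is a pair of RUNX motifs at P1. The RUNX motif was searched on both strands in 4 variants, TGTGGT with its variant TGTGGC, and the rarer TGCGGT with its variant TGCGGC. The pair is the reverse complement of TGTGGT written out 2 times in the same orientation with 2 bases between, 14 bp long. It occurred within 500 bp of P1 in all 3 Runx genes. The 30 bases around it are shown in the direction of transcription, with only the motifs of the pair in capitals. They are shown because 2 of these 3 sites lay in a Runx3-bound region and the third did not. The Runx2 line ends in a further RUNX motif, TGCGGT, left in lower case.
Runx1 P1, chr16:92826270-92826299, minus strand: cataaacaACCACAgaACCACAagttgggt
Runx2 P1, chr17:44951532-44951561, minus strand: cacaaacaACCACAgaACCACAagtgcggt
Runx3 P1, chr4:134676418-134676447, plus strand: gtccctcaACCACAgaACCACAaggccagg

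The 3 sites shared a stretch of 18 bp, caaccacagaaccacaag, which was the longest run of bases common to the 3 P1 windows of 500 bp on either side. Between Runx1 and Runx2 the shared run extended to 22 bp, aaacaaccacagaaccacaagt. The P2 windows of the 3 genes had no run longer than 8 bp in common. In Runx1 the pair began 20 bp downstream of P1, in a non-coding exon, and lay 14.5 bp from the midpoint of a Runx3-bound region. In Runx3 it began 141 bp upstream of P1 and lay 46.5 bp from the midpoint of a Runx3-bound region. In Runx2 it began 23 bp upstream of P1, in sequence that another Runx2 transcript uses as a coding exon, and lay in neither a Runx3-bound nor an H3K4me1-marked region. None of the 3 sites lay in an H3K4me1-marked region. Chromosomes 1 to 19 and X held 1388 such pairs, of which 24 (1.73%) lay in a Runx3-bound region, and Runx3-bound regions covered 0.161% of these chromosomes. In H3K4me1-marked regions, which covered 4.14%, lay 108 of the pairs (7.78%). A pair was found in 21 of 4934 Runx3-bound regions (0.426%) and in 18 of 30243 promoter windows of the same length (0.0595%). A match of letters describes the sequence and does not show that a site is used.

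The comparison of the promoters asked where Runx3 occupied its own gene family. Runx3-bound regions spanned the P1 starts of Runx1 and of Runx3, and no other of the 7 promoters had one within 1 kb, so that 2 of 7 were reached. Over all protein-coding promoters 3.59% had a Runx3-bound region within 1 kb. At Runx1 P1 the region ran from 92825755 to 92826843 (1089 bp), with its midpoint 12 bp downstream of the start. At Runx3 P1 it ran from 134675758 to 134677015 (1258 bp), with its midpoint 181 bp upstream of the start. As a scale for distances, neighbouring Runx3-bound regions of the list lay a median of 0.188 Mb apart. The closest Runx3-bound region was 55648 bp away at Runx1 P2, 166672 bp at Runx2 P2 and 31396 bp at Runx3 P2. At Runx2 P1 the closest was 244605 bp downstream and at Cbfb 451542 bp downstream. Runx1 and Runx3 therefore had the region at the more upstream of their promoters. Among 3930 protein-coding genes with promoters at least 5 kb apart, the most upstream promoter alone was reached in 172 (4.38%), another alone in 100 (2.54%), both kinds in 8, and neither in 3650 (92.9%).

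H3K4me1-marked regions came within 1 kb of 6 of the 7 promoters, where 49.8% of all protein-coding promoters had one. The exception was Runx2 P1, which had no H3K4me1-marked region for 3926 bp upstream and 22114 bp downstream. The start itself lay inside a marked region at 1 of the 7 promoters, Runx2 P2, where a region ran from 44873383 to 44875777 (2395 bp). Over all promoters 17.6% of starts lay inside one. At the other 5 promoters the mark stood on both sides of an unmarked stretch that held the start. This stretch was 129 bp long at Runx1 P2, 1111 bp at Runx1 P1, 1171 bp at Cbfb, 1835 bp at Runx3 P2 and 3333 bp at Runx3 P1. Within 1 kb on either side of the start the marked length was 93.6% at Runx1 P2, 60.7% at Runx2 P2, 48.7% at Runx1 P1, 47.1% at Runx3 P2, 41.5% at Cbfb, 35.4% at Runx3 P1 and 0% at Runx2 P1. The starts bound by Runx3 thus fell in the gap of the mark. At Runx1 P1 the next marked region upstream began 26 bp away, and H3K4me1 covered 46.6% of the Runx3-bound region. At Runx3 P1 it began 293 bp upstream and covered 41.1%.

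**Figure D1:**
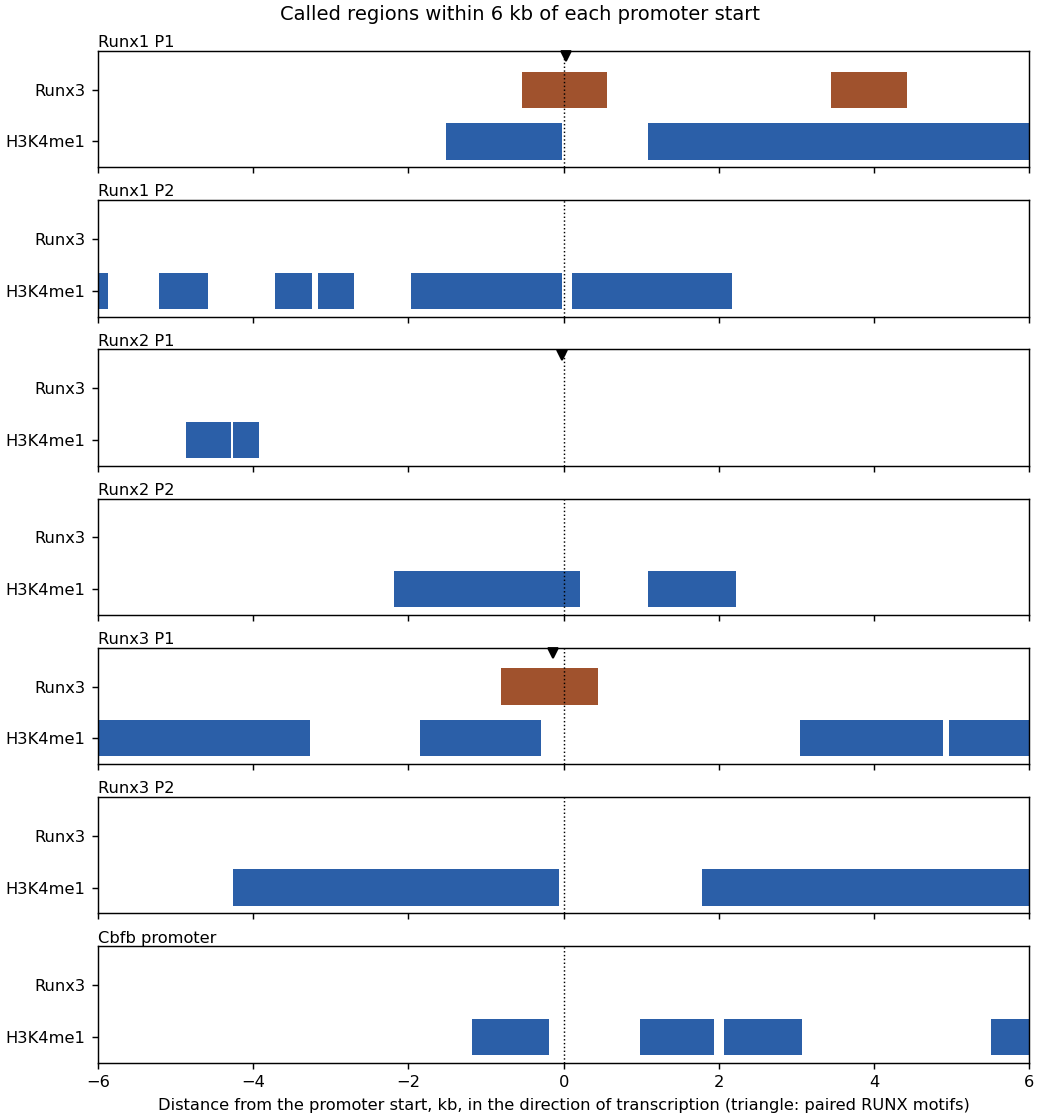
Runx3-bound (brown) and H3K4me1-marked (blue) regions within 6 kb of the 7 promoter starts. The horizontal axis gives the distance from the start in kb in the direction of transcription, and triangles mark the paired RUNX motifs at P1. Runx3 spans the P1 starts of Runx1 and Runx3, which lie in gaps of H3K4me1 of 1111 and 3333 bp, and Runx2 P1 has neither mark within 1 kb.

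The number of Runx3-bound regions differed widely among the 4 genes. Runx1 held 7, Runx3 held 2, Runx2 held 1 and Cbfb held 0, so that 3 of the 4 genes had at least 1, as did 30.9% of 22208 protein-coding genes. The windows were 324.6 kb long for Runx1, 418.8 kb for Runx2, 157.3 kb for Runx3 and 147.3 kb for Cbfb, against a median of 115.5 kb over all protein-coding genes. Per 100 kb of window the numbers were 2.16 for Runx1, 1.27 for Runx3, 0.239 for Runx2 and 0 for Cbfb. The median protein-coding gene had 0 regions, the mean was 0.469 and the highest count was 13. Only 0.0946% of protein-coding genes had 7 or more, and 2.44% had at least 2.16 per 100 kb. For Runx3 10.2% of genes had at least as many regions and 8.24% at least as many per 100 kb. For Runx2 these shares were 30.9% and 30.3%.

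**Figure D2:**
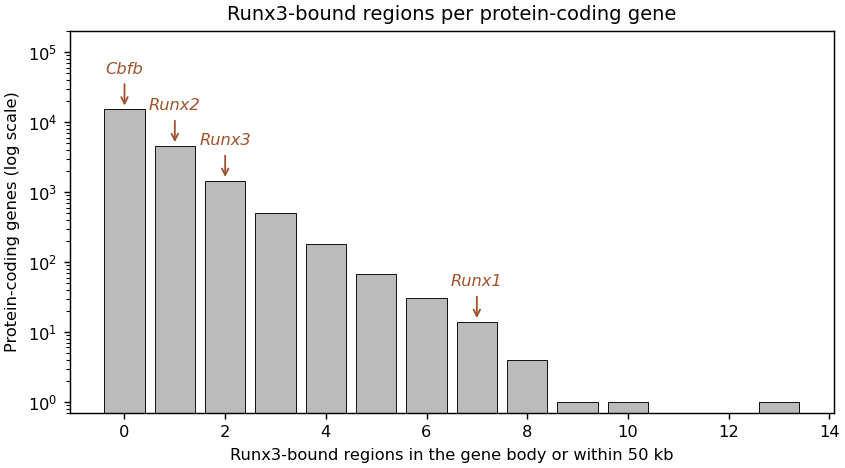
Number of Runx3-bound regions in the gene body or within 50 kb (horizontal axis) for 22208 protein-coding genes (vertical axis, number of genes on a log scale). Arrows mark the bars that contain Cbfb with 0 regions, Runx2 with 1, Runx3 with 2 and Runx1 with 7.

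All 7 Runx1 regions had their midpoint inside the gene, 6 of them between P1 and P2, and the region over P1 extended beyond the start of the gene. Counted from P1, their midpoints were at 12 bp and at 3.94, 7.43, 24.2, 39.2, 58.4 and 185 kb. Neighbouring regions of the first 6 were 3.49 to 19.2 kb apart, whereas the last was 126 kb beyond the sixth and 56.1 kb past P2. The large intron that separates P1 from P2, which contains the other 5 of these 6 regions, thus held most of the Runx3-bound regions of this gene. From 58.4 kb to P2 the intron held no further Runx3-bound region. Outside the window the next Runx3-bound region upstream lay 154.0 kb from Runx1, which was also the nearest protein-coding gene to it, and the next downstream lay 775 kb away.

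The intronic Runx1 regions ran from 92821884 to 92822861 (978 bp, 3.94 kb from P1), 92818633 to 92819140 (508 bp, 7.43 kb), 92801776 to 92802360 (585 bp, 24.2 kb), 92786691 to 92787448 (758 bp, 39.2 kb), 92767421 to 92768388 (968 bp, 58.4 kb) and 92641106 to 92641925 (820 bp, 185 kb). The region at 7.43 kb was among the narrowest of the list, in which 2.03% were narrower, and that at P1 among the wider ones, with 90.2% narrower. The median width over the list was 851 bp.

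The single region at Runx2 ran from 44705875 to 44706925 (1051 bp) in an intron, 245 kb from P1 and 167 kb past P2. The Runx2 exons mapped here lay within 210580 bp of P1, apart from a single one from 317338 to 317942 bp. The site lay between these, so its place inside the gene rests on annotated transcripts that reach beyond 210580 bp. The gene body and window used for Runx2 rest on them as well. Runx2 P1 thus had the paired motif but no Runx3-bound region, and the only bound site of the gene lay far downstream. At Runx3 both regions lay on the upstream side of the gene. Besides the region over P1, a region of 1081 bp ran from 134654089 to 134655169, 21.9 kb upstream of P1 in intergenic sequence, and P1 of Runx3 was the nearest protein-coding start to it. The body of Runx3 beyond P1 held no further region. At Cbfb, no region was called within 50 kb. The next Runx3-bound region upstream was 10251 kb away and the next downstream 405 kb away, with Ctcf as its nearest gene. This stretch of 10.7 Mb between neighbouring Runx3-bound regions was number 3 in length of 4914 on the same chromosomes, where the median was 0.188 Mb, and it held 170 H3K4me1-marked regions, or 15.9 per Mb against 29.1 per Mb over all chromosomes. A region absent from the list cannot be told from one below the calling threshold.

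**Figure D3:**
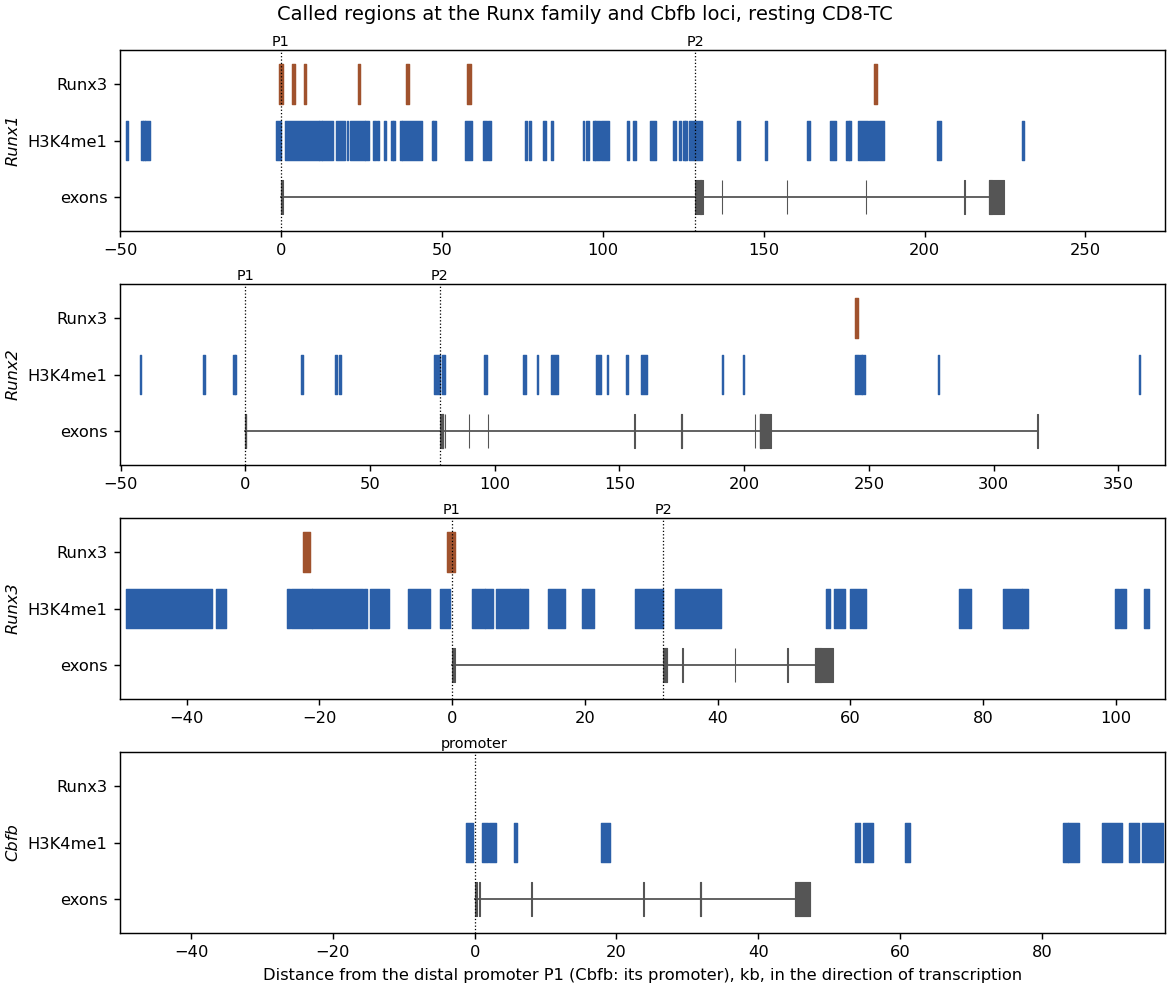
Maps of the 4 loci with a margin of 50 kb, drawn by distance in kb from P1 (for Cbfb from its promoter) in the direction of transcription. Brown blocks are Runx3-bound regions, blue blocks H3K4me1-marked regions and grey blocks exons, and dotted lines mark promoter starts. Runx3 binding in Runx1 is gathered between P1 and 58.4 kb, and in Runx3 at and upstream of P1.

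All 10 Runx3-bound regions overlapped an H3K4me1-marked region (100%, Wilson 95% interval 72.2 to 100%), as did 78.8% of all Runx3-bound regions. Of the 10, 8 were wholly covered by the mark and had their midpoint in it (80%, interval 49.0 to 94.3%). Over the whole list 50.6% were wholly covered and 66.1% had their midpoint in a marked region. The exceptions were the regions at Runx1 P1 and Runx3 P1. These intervals cover counting error only, and regions of the same gene are not independent of each other. The NIS control was common to the lists of both antibodies, and its part in the overlap was not tested.

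The marked regions that wholly covered a site were 1789 to 10640 bp wide, and the median over the H3K4me1 list was 979 bp. This is not a like comparison, because a marked region that covers a site must be at least as wide as the site. Whether they were wider than marked regions with Runx3 elsewhere was not tested. The Runx1 regions at 3.94 and 7.43 kb shared a single marked region of 10640 bp (92814586 to 92825225), which was number 250 by width among 76705. The region at 24.2 kb lay in a marked region of 4702 bp, that at 39.2 kb in one of 6329 bp, that at 58.4 kb in one of 2283 bp and that at 185 kb in one of 4918 bp. The Runx2 site lay in a marked region of 1789 bp, and the upstream Runx3 site in one of 3174 bp. Seen from the mark, 9 of the 117 H3K4me1-marked regions (7.69%) overlapped a Runx3-bound region, 6 in Runx1, 1 in Runx2, 2 in Runx3 and 0 in Cbfb, where 5.49% of the whole list did.

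Sequence at the midpoints of the Runx3-bound regions is shown for 4 of them because they differ in how many RUNX motifs lie near the centre and in which variant. Each is the central 200 bp on the plus strand of mm9, with RUNX motifs of either orientation in capitals, so that a motif on the minus strand appears as its reverse complement.
Runx1, 58.4 kb from P1, chr16:92767805-92768004: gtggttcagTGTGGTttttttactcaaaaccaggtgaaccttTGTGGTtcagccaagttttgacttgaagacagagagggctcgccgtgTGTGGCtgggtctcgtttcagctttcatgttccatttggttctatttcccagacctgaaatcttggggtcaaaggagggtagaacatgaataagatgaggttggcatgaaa
Runx1, 24.2 kb from P1, chr16:92801969-92802168: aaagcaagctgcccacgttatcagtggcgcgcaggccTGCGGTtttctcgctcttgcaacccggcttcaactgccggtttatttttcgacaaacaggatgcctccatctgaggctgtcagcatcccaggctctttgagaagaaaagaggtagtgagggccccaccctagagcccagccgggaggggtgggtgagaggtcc
Runx2, 245 kb from P1, chr17:44706301-44706500: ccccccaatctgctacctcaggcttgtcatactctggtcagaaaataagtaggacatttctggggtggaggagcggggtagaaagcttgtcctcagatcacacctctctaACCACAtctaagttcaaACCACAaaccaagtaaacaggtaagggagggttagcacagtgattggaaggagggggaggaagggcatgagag
Runx3, 21.9 kb upstream of P1, chr4:134654530-134654729: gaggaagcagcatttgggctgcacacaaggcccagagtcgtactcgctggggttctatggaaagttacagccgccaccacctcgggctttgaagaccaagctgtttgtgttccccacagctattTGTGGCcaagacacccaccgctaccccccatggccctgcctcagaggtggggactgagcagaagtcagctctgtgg

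The Runx1 region at 58.4 kb had 3 motifs in its centre, 2 of TGTGGT and 1 of TGTGGC, and the centre of the nearest was 7.5 bp from the midpoint of the region, the measure used for the other motifs here as well. The Runx1 region at 24.2 kb held a single motif in its whole length, the variant TGCGGT, 59.5 bp from the midpoint. The Runx2 site had 2 TGTGGT motifs on the minus strand, at -13.5 and -30.5 bp from the midpoint, and the upstream Runx3 site 1 TGTGGC motif at 27.5 bp, counted in the direction of transcription. In the Runx1 region at 3.94 kb a pair of TGTGGT motifs also began 8 bp apart, as in the paired site at P1, but in opposite orientation, at -150.5 and -158.5 bp from the midpoint.

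A RUNX motif was present in all 10 regions (100%, Wilson interval 72.2 to 100%), against 88.8% of all Runx3-bound regions and 73.3% of windows of the same widths 5 kb away. Long regions hold a motif of this length often, and in the 200 bp around the midpoint 7 of the 10 held one (70%, interval 39.7 to 89.2%), close to the 66.1% of the whole list. The number per region was 11 at Runx3 P1, 8 at Runx1 3.94 kb, 7 at the upstream Runx3 site, 5 at Runx1 P1, 4 at the Runx2 site and at Runx1 58.4 kb, 3 at Runx1 39.2 kb, 2 at Runx1 185 kb and 1 at each of Runx1 7.43 and 24.2 kb. The median was 4, or 4.05 per kb, against 2 and 2.77 per kb over the list and 1 and 1.37 per kb in the windows 5 kb away. At least 11 motifs were found in 0.324% of all Runx3-bound regions and at least 8 in 1.42%. The 3 regions without a motif near the midpoint were those of Runx1 at 7.43, 39.2 and 185 kb.

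Of the 46 motifs in the 10 regions, 25 were TGTGGT (54.3%), 18 TGTGGC (39.1%), 1 TGCGGT (2.17%) and 2 TGCGGC (4.35%). Over all Runx3-bound regions these shares were 52.3%, 31.0%, 9.39% and 7.27%. The 2 TGCGGC motifs lay in the regions at P1, 1 in Runx1 and 1 in Runx3. The motif of the ETS family, factors that often bind beside RUNX in lymphocytes, was searched on both strands as AGGAAA with its variant AGGAAG, and as CGGAAA with its variant CGGAAG. It was present in all 10 regions, 1 to 6 times each, and in 95.0% of the whole list and 88.4% of the windows 5 kb away. No ETS and RUNX motif overlapped in the 10 regions. The closest pair began 10 bp apart, in the upstream Runx3 site.

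**Figure D4:**
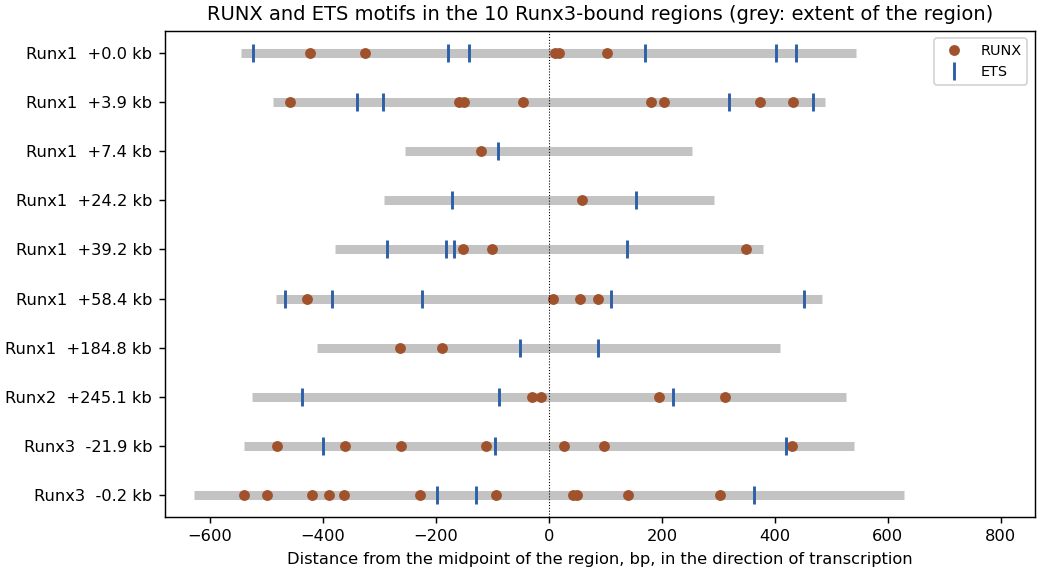
Positions of RUNX motifs (brown dots) and ETS motifs (blue bars) in the 10 Runx3-bound regions, named by gene and distance from P1 in kb. The horizontal axis is the distance in bp from the midpoint of the region in the direction of transcription, and grey bars give its extent. The regions hold between 1 RUNX motif (Runx1 at 7.4 and 24.2 kb) and 11 (Runx3 P1).

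Sequence just upstream of the promoters differed in the same motif. The 300 bp upstream of the start held 5 RUNX motifs at Runx2 P1, 4 at Runx3 P1 and 2 at Runx3 P2, and 0 at Runx1 P1, Runx1 P2, Runx2 P2 and Cbfb. At Runx1 P1 the paired motifs lay downstream of the start and so outside this stretch. At Runx2 P1 they are counted among the 5, although an exon of another Runx2 transcript begins at -46 bp from P1 and holds the pair. The counts thus depend on the start chosen. Over all protein-coding promoters 42.4% held at least 1. The promoter with the most motifs in this stretch, Runx2 P1, had no Runx3-bound region. Within 1 kb on either side of the start the order was different, with 11 motifs at Runx3 P1, 10 at Runx2 P1, 9 at each of Runx1 P2 and Runx3 P2, 6 at each of Runx1 P1 and Runx2 P2, and 3 at Cbfb.

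The enhancer mark was denser at Runx3 and Runx1 than at Runx2 and Cbfb. H3K4me1-marked regions numbered 52 at Runx1, 27 at Runx3, 25 at Runx2 and 13 at Cbfb. They covered 45.8% of the Runx3 window (72.0 kb), 24.4% of the Runx1 window (79.1 kb), 11.4% of the Cbfb window (16.7 kb) and 6.02% of the Runx2 window (25.2 kb). Over protein-coding genes the median was 7 regions and 5.97% of the window. Only 0.477% of genes had as large a share covered as Runx3, 7.97% as large as Runx1, 30.8% as large as Cbfb and 49.8% as large as Runx2. By number of marked regions Runx1 ranked higher than Runx3, with 0.108% of genes at or above it against 2.40%. The median width was 1687 bp at Runx3, 1005 bp at Cbfb, 879.5 bp at Runx1 and 647 bp at Runx2, and the widest single regions measured 13035 bp at Runx3, 10640 bp at Runx1, 2973 bp at Cbfb and 2682 bp at Runx2.

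The mark at Runx3 was concentrated on the 50 kb upstream of P1, of which 68.6% was covered by 9 regions. Only 0.171% of protein-coding genes had at least this share of their upstream 50 kb covered, and the median was 4.19%. The widest marked region at the 4 loci lay there, from 134627397 to 134640431 (13035 bp, number 133 by width of 76705), centred 42.7 kb upstream of P1, and it held no Runx3-bound region. A region of 7738 bp followed, centred 17.2 kb upstream, next to the marked region with the bound site at 21.9 kb. Inside the gene 50.9% of the length from P1 to P2 was marked and 28.8% of that from P2 to the end, and 28.2% of the 50 kb downstream. The shares thus fell from upstream to downstream along the gene.

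At Runx1 the order was different. From P1 to P2, 44.1% was marked by 36 regions, against 17.9% from P2 to the end, 9.65% of the upstream 50 kb and 0.766% of the downstream 50 kb. At P2 of Runx1 regions of 1950 and 2058 bp flanked the start without a Runx3-bound region. At Runx2 the marked share was low throughout, 3.90% upstream, 5.84% from P1 to P2, 7.54% from P2 to the end and 1.13% downstream. The marked regions included the one over P2 and a run of 4 at and beside the Runx3-bound site in the downstream intron, at 245 to 248 kb from P1. At Cbfb 1.98% of the upstream 50 kb, 8.03% of the gene and 23.9% of the downstream 50 kb was marked.

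**Figure D5:**
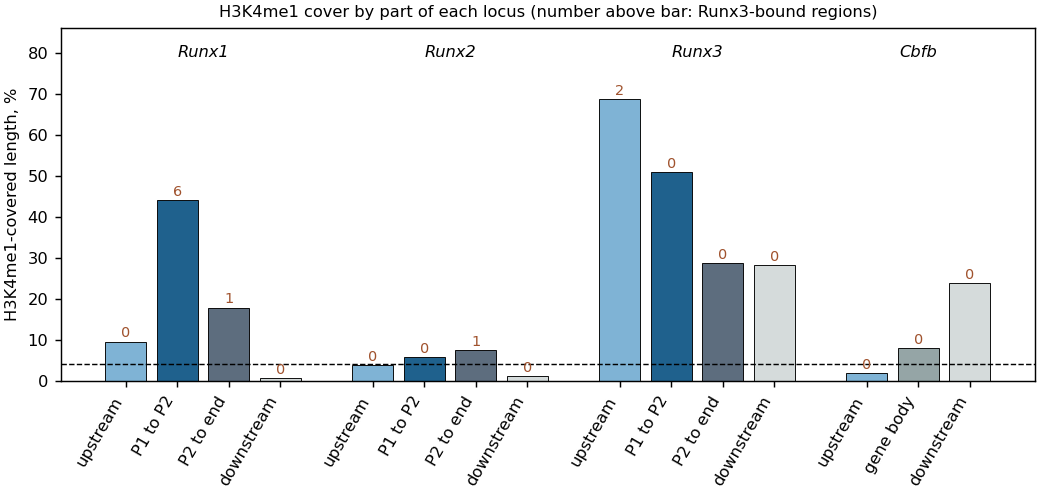
Share of length covered by H3K4me1-marked regions (vertical axis, percent) in each part of the 4 loci, with the number of Runx3-bound regions above each bar. The dashed line is the share of all chromosomes covered, 4.14%. The 50 kb upstream of Runx3 (68.6%) and the interval between P1 and P2 of Runx1 (44.1%) and Runx3 (50.9%) stand highest.

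Some marked regions in the windows belonged by distance to neighbouring genes. The nearest protein-coding start was that of the gene itself for 51 of 52 regions at Runx1, 24 of 27 at Runx3 and 21 of 25 at Runx2, but for 5 of 13 at Cbfb. At Cbfb the other 8 lay downstream, with D230025D16Rik (3), B3gnt9-ps (2), Tradd (2) and Fbxl8 (1) nearest. At Runx2, Supt3h, which overlaps the Runx2 interval from P1 to P2, was nearest for 3. The widest marked region in the Cbfb window (2973 bp) was nearest to Fbxl8, so that the downstream mark cannot be assigned to Cbfb by position.

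Genes for cofactors linked to RUNX proteins were listed for comparison, 8 listed as co-repressors and 4 as co-activators or modifying enzymes. Of these 12 genes, 6 (50%) had a Runx3-bound region in the same kind of window, against 30.9% of protein-coding genes. In the gene body alone the count was 2 of 12, against 8.54% of genes, with a margin of 10 kb it was 4, against 15.5%, and with 100 kb it was 9, against 44.2%. Among the co-repressors Tle4 had 3, Tle2 had 2, and Aes and Hdac3 had 1 each, and Tle1, Tle3, Sin3a and Suv39h1 had 0. The Tle proteins of the Groucho family bind the C-terminus of RUNX proteins, Aes is a related member of that family, and Hdac3 is a histone deacetylase. Among the others the acetyltransferase genes Ep300 and Crebbp had 2 and 1, and Kat6a and Prmt1 had 0. Within 1 kb of any of its promoters, Tle4 and Aes, 2 of the 12, had a Runx3-bound region, as did 4.71% of protein-coding genes. An H3K4me1-marked region was found there at 11 of the 12 genes, Suv39h1 being the exception, and at 57.8% of protein-coding genes. None of the 12 had as many Runx3-bound regions as Runx1.

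H3K4me1 was also examined at genes that mark cell types. It covered 31.5% of the body of Cd8a, 51.1% of Cd8b1 and 36.0% of Cd3e, which mark T cells. It also covered 53.8% of Cd79a, which marks B cells, and 22.7% of Itgam, a myeloid marker. A Runx3-bound region lay in the body of Itgam (1), and none lay in those of Cd8a, Cd8b1, Cd3e and Cd79a. Over all protein-coding genes the median cover of the body was 4.15%, and 8.54% had the midpoint of a Runx3-bound region in the body. Per the labels the purity of the selected cells was over 95%. The part of other spleen cells in the marked regions at the 4 loci was not tested, and the lists cannot tell which cells carried a region.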

How the data were processed

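ChIP-seq libraries of Runx3, H3K4me1 and NIS from resting CD8-TC were analysed from the lists of regions that the authors deposited. The authors aligned reads of 40 to 42 bp to mm9 with ELAND (CASAVA 1.6 and 1.7 in the submitters' processing notes), joined both repeats and called peaks with MACS against joined NIS reads. The deposited lists give start and end positions in bp without a score, read count or p-value, so depth and replicate error per region are unknown and no test was run. Starts were moved by 1 bp to 1-based positions, and 0 columns of per-sample values were left out. Genes, exons and proteins were those of GENCODE on NCBIM37, the same build as mm9, and 1 entry per gene name, the longest, was used. Every Runx3-bound region at the 4 genes was given with its position. Of the H3K4me1-marked regions the widest of each gene, some of those at promoters and most of those with Runx3 were given by width. Cofactor and marker lists, like the 4 genes themselves, were chosen with earlier results of these data known, and 1 gene of each list is not reported here. Counts, cover and motifs were computed with Python 3.11.15, numpy 2.4.6, pandas 2.3.3, pysam 0.24.0 and Biopython 1.88, and the scripts were tested on simulated regions. Intervals are Wilson 95% intervals. Alternatives changed the margin, the assignment of regions, the gene body, merging of H3K4me1-marked regions, the overlap rule, the promoter window and the motif window.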

Additional observations from a re-analysis of the deposited data

How the results depend on the processing

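Of 55 alternative values for 13 results, 43 stayed within the limit set for them and 12 moved. A narrower or wider window, merging and a shorter searched stretch change such counts by construction. The Runx3-bound regions at Runx3 fell from 2 to 0 in the gene body alone and to 1 with a margin of 10 kb, whereas Runx1 kept a count of 7, Runx2 of 1 and Cbfb of 0 under every margin. H3K4me1-marked regions at Runx3 numbered 9 in the gene body, 14 with 10 kb, 43 with 100 kb and 13 after merging of neighbours within 1000 bp, against 27. At Cbfb they numbered 4, 7 and 22 with the same margins, against 13, and at Runx1 merging left 28 of 52. The share of Runx3-bound regions with a RUNX motif was 70% in the central 200 bp, against 100%. Cofactor genes with a Runx3-bound region numbered 2 in gene bodies and 9 with 100 kb, against 6. No paired analysis was possible because MACS was run on reads joined over repeats, which also means that none of the repeats could be left out. A filter on score was planned but could not be run, as no score is given. With 10 Runx3-bound regions, shares of them have wide intervals.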
